A study of Mus musculus with 12 samples.

Results

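The immunoglobulin genes of the mouse ileum, together with the genes that assemble and export IgA, were followed through 12 libraries of scraped ileal mucosa. Members were chosen by their own level: a row annotated as an immunoglobulin gene entered when its mean over the 12 libraries reached 5 TPM, a length-normalized share of the transcripts in a library, and Jchain, Pigr and Mzb1 were added by name. This gave 151 of the 55891 rows of the table. They comprised 8 constant-region genes (Igha, Ighm, Ighd, Ighg2b, Igkc, Iglc1, Iglc2 and Iglc3), 79 heavy-chain, 60 kappa and 1 lambda variable segments, and the 3 added genes. Because the mean TPM chose the members, their overall abundance is given as a description without a test. The lowest member had a mean of 5.04 TPM and the highest immunoglobulin row left outside had 4.94 TPM. Of 425 immunoglobulin rows, 161 were at 0 in all 12 libraries, all 14 joining segments among them, and 116 were above 0 in a library but under the rule.

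The mice carried either of 2 genotypes, called Erbb3-FF and ERBB3-dIE in the labels, with 6 mice of each and 1 library per mouse, all at baseline. The study asked about the ErbB3 receptor tyrosine kinase in the barrier of the small intestine. The mice came from litters A and B. Of the Erbb3-FF mice, 4 were from litter A and 2 from litter B, and of the ERBB3-dIE mice 3 were from each, so genotypes could be compared within litters. The sources used here do not give the promoter that drives deletion, the exon removed, any allele that both genotypes share, or the age of the mice.

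IgA is made by plasma cells that lie beneath the intestinal epithelium, and it leaves these cells mostly as dimers held together by the J chain. The polymeric immunoglobulin receptor, encoded by Pigr and made by epithelial cells, binds the J chain of dimeric IgA at the basolateral face and carries it into the lumen. Mzb1 encodes an endoplasmic reticulum protein of B lineage cells that aids antibody assembly. IgM and IgD are the isotypes of naive B cells, which in the gut gather in Peyer's patches and isolated lymphoid follicles.

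The end of the heavy chain decides which isotypes can take up the J chain, so the last 54 coding bases of the secreted transcripts of Igha, Ighm and, for contrast, Ighg2b are shown, from the GENCODE mouse transcripts on GRCm38, 5′ to 3′, with the second-last codon in capitals. In Igha and Ighm this codon read cysteine, the residue known to bond to the J chain, and in Ighg2b it read glycine.
Igha: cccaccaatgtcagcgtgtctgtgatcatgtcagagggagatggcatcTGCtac
Ighm: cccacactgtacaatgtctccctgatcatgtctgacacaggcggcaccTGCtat
Ighg2b: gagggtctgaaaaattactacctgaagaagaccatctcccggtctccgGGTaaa

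TPM sum to the same total in every library, so the sequencing depth behind each value is unknown and no counting interval can be given. Between 12344 and 13364 genes reached 1 TPM per library. Mitochondrial transcripts took 7.94% to 22.1% of TPM. The libraries of Erbb3-FF mice 5 and 6 held 10.2% and 10.8% ribosomal sequence, and no other held more than 1.62%. Erbb3 itself did not separate the genotypes at the level of the whole gene (87.3 to 151 TPM in Erbb3-FF and 104 to 206 TPM in ERBB3-dIE, limma log2 difference 0.16, SE 0.11, adjusted p = 0.402). A gene-level value includes exons outside any deleted part, so it does not check the labels. Pmp22, named in the title of the series, was at 548 to 790 TPM in Erbb3-FF and 135 to 250 TPM in ERBB3-dIE.

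3 libraries stood apart in B cell content before any antibody gene was compared. The 6 B cell genes Ms4a1, Cd79a, Cd79b, Pax5, Cr2 and Fcer2a summed to 238, 128 and 104.5 TPM in Erbb3-FF mice 1, 2 and 3 and to 4.41 to 14.4 TPM in the other 9. Mice 1 and 2 belong to litter B and mouse 3 to litter A. Cr2, the complement receptor of follicular B cells and follicular dendritic cells, was at 58.1, 63.8 and 41.8 TPM in these mice and at most 0.894 TPM elsewhere, with 0 in Erbb3-FF mouse 6. All 3 libraries are Erbb3-FF, so in this design B cell content and genotype move together, and results that change without them are given both ways. That set of libraries was chosen after their values were seen. Leaving it out removes every Erbb3-FF mouse of litter B. The genotype difference then compares mice of litter A only, and the litter difference compares ERBB3-dIE mice only. Ms4a1 was at 10.8 to 22.3 TPM in the 3 libraries and at most 1.94 TPM elsewhere. Cd79a, the signalling chain of the B cell receptor, was at 25.5 to 67.4 against at most 5.44 TPM. In bulk mucosa, fewer cells of a type and less RNA per cell cannot be told apart.

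Igha, the constant region of IgA, was the dominant heavy chain in every library. It stood at 1006, 701, 337, 1615, 1930 and 1880 TPM in Erbb3-FF mice 1 to 6 and at 528, 1450, 1057, 1850, 3148 and 3815 TPM in ERBB3-dIE mice 1 to 6. The highest values came from ERBB3-dIE mice 5 and 6 and the lowest from Erbb3-FF mouse 3, and the genotypes overlapped. The means were 1245 ± 661 and 1975 ± 1264 TPM (SD, n = 6 each). In limma with litter as a covariate, Igha differed between genotypes by 0.79 on the log2(TPM + 0.5) scale (SE 0.46, adjusted p = 0.354). The difference of litter B from litter A was -1.08 on that scale (SE 0.47, limma adjusted p = 0.154). Neither passed the threshold of 0.05.

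Ighm, Ighd and Ighg2b were highest in the libraries rich in B cell genes. Ighm was at 135, 53.6 and 54.3 TPM in Erbb3-FF mice 1, 2 and 3 and between 1.74 and 7.78 TPM in the other 9 libraries. Ighd was at 65.7, 19.3 and 21.1 TPM in those mice and between 0.261 and 3.61 TPM elsewhere. Ighg2b, an IgG isotype, was at 40.7, 25.0 and 96.7 TPM there and between 1.69 and 16.5 TPM elsewhere. All 3 genes were thus high in the same 3 libraries. The remaining Erbb3-FF mice overlapped with ERBB3-dIE for Ighd and Ighg2b, and for Ighm they lay below it, at 1.74 to 3.29 TPM against 3.37 to 7.78 TPM. The same libraries were the highest for Ighg1, which missed the rule at a mean of 2.82 TPM (8.15, 10.9 and 10.7 TPM against at most 1.16 TPM), and for Ighg3 (11.2, 2.57 and 3.43 TPM against at most 0.364 TPM). Ighg2c, also under the rule, did not separate these libraries: it was at 2.58, 0.911 and 1.79 TPM in Erbb3-FF mice 1, 2 and 3 and reached 1.16 TPM in ERBB3-dIE mouse 4. Ighe and Iglc4 were listed at 0 in all libraries.

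**Figure D1:**
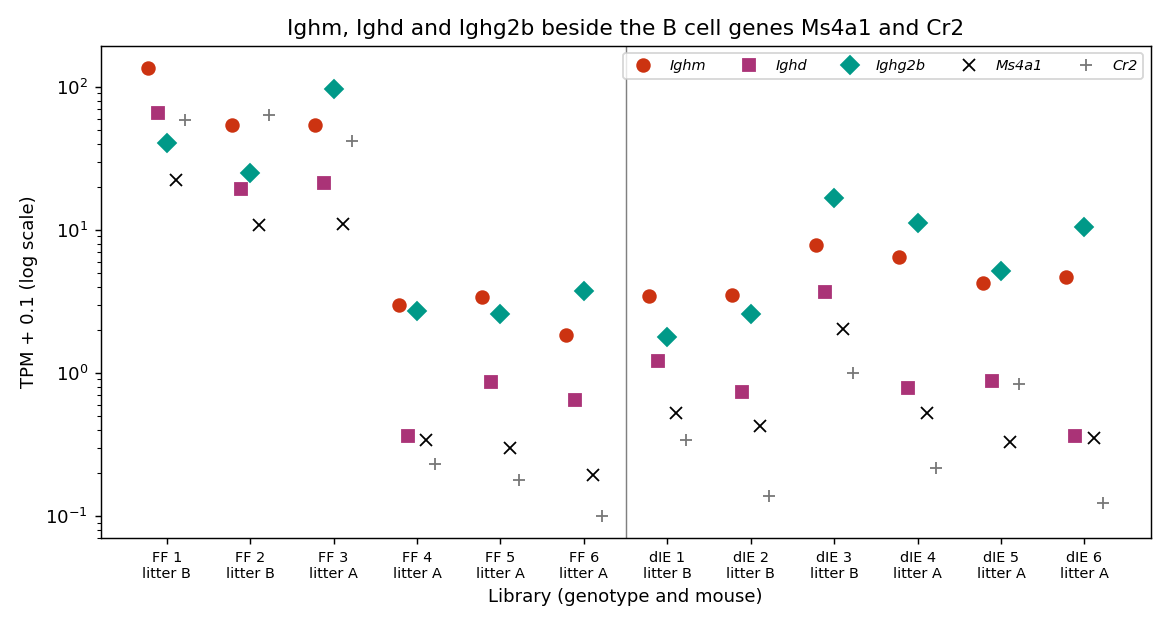
TPM plus 0.1 on a log axis for Ighm, Ighd, Ighg2b and the B cell genes Ms4a1 and Cr2 in each of the 12 libraries, with the litter under each mouse number and a grey line between the genotypes. All 5 genes are high in Erbb3-FF mice 1, 2 and 3, where Ms4a1 was at 22.3, 10.8 and 10.8 TPM, and Ms4a1 was at most 1.94 TPM in the other 9 libraries.

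The heavy-chain constant TPM were summed over the members, without Ighg1, Ighg3 and Ighg2c. As a share of this sum, Igha made up 80.7%, 87.8% and 66.2% in Erbb3-FF mice 1, 2 and 3 and 97.4% to 99.7% in the other 9 libraries. Ighm and Ighd together made up 16.1%, 9.12% and 14.8% in the first 3 and 0.121% to 1.05% in the others. The 3 Erbb3-FF libraries thus did not overlap with the rest in either share. Ighm and Ighd reached a mean of 5 TPM in Erbb3-FF and not in ERBB3-dIE, so the rule took them in through the group where they were high. Their genotype differences are therefore given as a description without a p-value. Both are still among the 11 genes over which the permutation tests below are adjusted. The log2 difference of Ighm was -1.81 (SE 0.88), and without those 3 libraries it was 0.83, the opposite sign. For Ighd, under the filter of 1 TPM in 6 libraries, it was -2.35 (SE 0.91) with no filter. Ighg2b differed by -1.03 (SE 0.95, limma adjusted p = 0.570), and by 1.39 without the 3 libraries (adjusted p = 0.367).

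The light chains were mostly kappa. Igkc, the kappa constant region, was at 2621, 1904, 1076, 3263, 4183 and 3350 TPM in Erbb3-FF mice 1 to 6 and at 1137, 3436, 2128, 3931, 7370 and 7410 TPM in ERBB3-dIE mice 1 to 6. It was highest in ERBB3-dIE mice 5 and 6, as Igha was, and the genotypes overlapped (limma log2 difference 0.63, SE 0.41, adjusted p = 0.409). Lambda made up 2.15% to 14.1% of the light-chain constant TPM. Over all libraries, light-chain constant TPM stood at 2.06 to 2.54 times heavy-chain constant TPM, a ratio that varied 1.23-fold while Igha itself varied 11.3-fold.

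The lambda constant genes did not move as one. Iglc2 and Iglc3 are near copies, and the last 75 coding bases, the length of 1 read, are shown for each lambda gene from the same transcripts, 5′ to 3′, with the 18 positions where the 3 genes differ in capitals. Over the last 312 coding bases Iglc2 and Iglc3 differed at 11 positions (96.5% identity), and over these 75 at 1. Yet only 0.931% of the 75-base windows of Iglc2 and 1.32% of those of Iglc3 also occurred in another gene, so most reads could be assigned.
Iglc1: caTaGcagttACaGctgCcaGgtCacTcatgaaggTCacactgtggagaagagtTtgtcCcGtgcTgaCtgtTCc
Iglc2: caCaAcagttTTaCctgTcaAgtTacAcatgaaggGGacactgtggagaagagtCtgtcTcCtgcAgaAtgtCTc
Iglc3: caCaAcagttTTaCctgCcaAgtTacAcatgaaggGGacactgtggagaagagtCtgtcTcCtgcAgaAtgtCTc

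Iglc3 was at 77.3, 36.6, 29.9, 24.4, 8.41 and 18.2 TPM in Erbb3-FF mice 1 to 6 and at 2.83, 8.18, 11.7, 8.87, 10.7 and 11.9 TPM in ERBB3-dIE mice 1 to 6. Only Erbb3-FF mouse 5 lay within the ERBB3-dIE range, and the other 5 lay above it. The limma log2 difference was -1.67 (SE 0.48, adjusted p = 0.0684), and an exact 2-sided permutation test within litters over 350 relabellings gave p = 0.0143 (adjusted over the 11 genes tested, p = 0.157). With the litter-adjusted difference as the permuted value, a form added after seeing the data, the exact permutation p was again 0.0143 (adjusted p = 0.0786). Limma called Iglc3 in 1 of 12 fits that left out a library, that without Erbb3-FF mouse 5 (adjusted p = 0.0266), and it passed in 3 of 18 other alternatives, among them library weights (limma adjusted p = 0.0496) and the set without the 2 libraries high in ribosomal sequence (adjusted p = 0.0335). The third was the authors' deposited table, with a log2 fold change of -1.66 and an adjusted p of 0.00214. Without the 3 libraries rich in B cell genes, and so within litter A only, the limma difference was -0.56 (adjusted p = 0.640). Iglc1, the lambda gene with the highest level, was at 53.2 to 518 TPM in Erbb3-FF and 89.99 to 440 TPM in ERBB3-dIE (0.29, SE 0.61, limma adjusted p = 0.820), and Iglc2 at 9.96 to 50.6 and 5.48 to 26.8 TPM (-0.59, SE 0.45, limma adjusted p = 0.480). Iglc1 made up 57.2%, 55.9% and 51.4% of lambda constant TPM in Erbb3-FF mice 1, 2 and 3 and 81.5% to 94.3% in the other libraries.

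Jchain, which encodes the protein that joins IgA into dimers, followed Igha closely. It was at 238, 177, 80.6, 315, 402 and 377 TPM in Erbb3-FF mice 1 to 6 and at 99.7, 301, 238, 388, 581 and 699 TPM in ERBB3-dIE mice 1 to 6. The genotypes overlapped (limma log2 difference 0.62, SE 0.44, adjusted p = 0.455). The ratio of Igha to Jchain TPM stayed between 3.96 and 5.46 in all 12 libraries.

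Across the 12 mice, log2 levels of Igha and Jchain had a Pearson r of 0.992 and a Spearman rho of 0.986. The permutation p was 1e-05 for each, the smallest that 100000 resamples allow (adjusted over 5 pairs, 2.5e-05). The r was 0.992 for residuals from litter and genotype, 0.999 within the 7 mice of litter A and 0.997 without the 2 mice farthest from the median of Igha. Litter B, with 5 mice, was too small for a value of its own. Igha and Igkc had an r of 0.98 and a rho of 0.958 (adjusted permutation p = 2.5e-05 for each), with 0.983 in litter A and 0.969 without the 2 farthest mice. These genes share the library total, and on totals without immunoglobulin rows both r stood at 0.992 and 0.98.

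Mzb1 did not follow Igha in every library. It was at 26.5, 13.4, 6.91, 7.82, 6.48 and 7.78 TPM in Erbb3-FF mice 1 to 6 and at 2.25, 5.70, 4.73, 8.45, 11.9 and 12.9 TPM in ERBB3-dIE mice 1 to 6. The limma genotype difference was -0.54 (SE 0.45, adjusted p = 0.522). Per 100 TPM of Jchain, Mzb1 stood at 11.2, 7.59 and 8.58 TPM in Erbb3-FF mice 1, 2 and 3, the libraries rich in B cell genes, and at 1.61 to 2.48 TPM in the other 9. The r with Igha was 0.316 over 12 mice (rho 0.245, adjusted permutation p = 0.400 and 0.555), -0.062 without the 2 mice farthest from the median of Igha, 0.677 within litter A and 0.979 over the 9 libraries without those 3 (permutation p adjusted over 4 pairs 0.00014). The first value thus rests on which libraries enter. Of the 75-base windows of Mzb1, 51.4% also occur in another annotated transcript, so its level is uncertain. Ighm fell into separate clusters, and over the 9 libraries with low B cell content its r with Igha was -0.012 (rho -0.033, adjusted permutation p = 0.977 and 0.948).

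**Figure D2:**
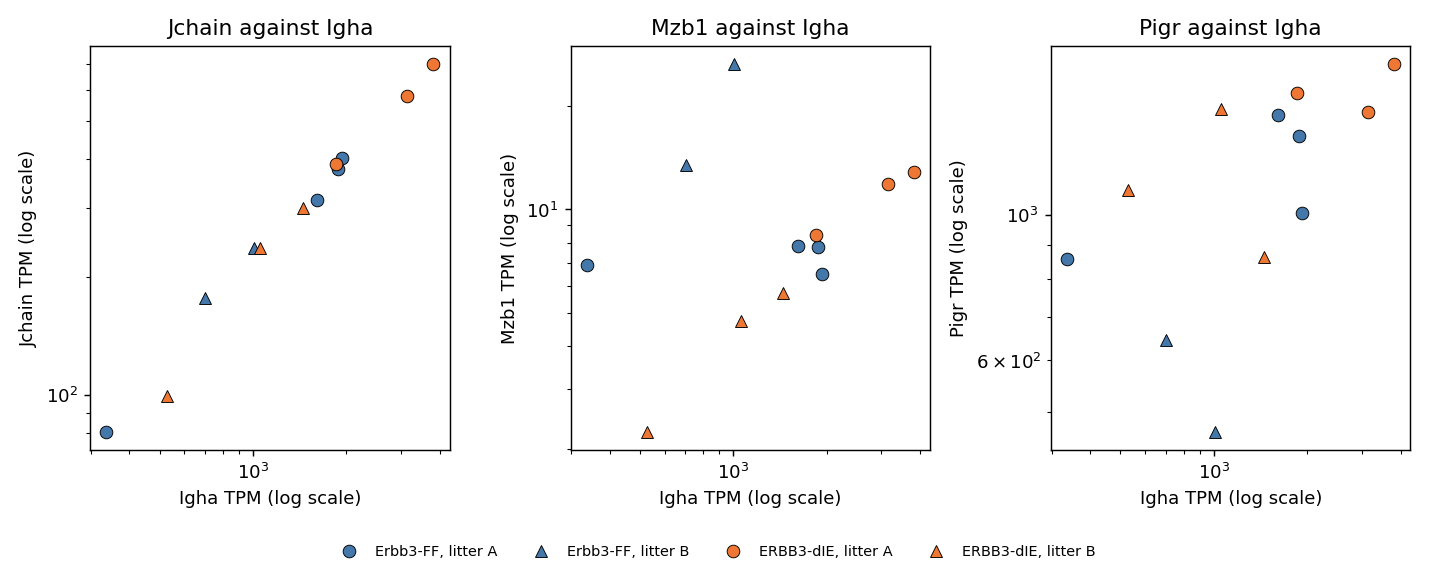
Jchain, Mzb1 and Pigr TPM against Igha TPM on log axes, 1 point per mouse, with colour for genotype and shape for litter. Jchain lies on a line with Igha (r = 0.992), Erbb3-FF mice 1, 2 and 3 lie above the line of the other libraries for Mzb1, and Pigr scatters more widely (r = 0.561).

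Pigr, the epithelial receptor for dimeric IgA, was at 467, 644, 859, 1424, 1008 and 1320 TPM in Erbb3-FF mice 1 to 6 and at 1095, 862, 1456, 1538, 1437 and 1701 TPM in ERBB3-dIE mice 1 to 6. Over all mice the genotypes overlapped. Within litter A the Erbb3-FF mice lay at 859 to 1424 TPM and the ERBB3-dIE mice at 1437 to 1701 TPM, and within litter B at 467 to 644 and 862 to 1456 TPM, so that neither litter showed an overlap. The limma log2 difference was 0.69 (SE 0.18, 95% interval 0.29 to 1.09), and its adjusted p of 0.0513 just missed the threshold. The exact 2-sided permutation test within litters gave p = 0.0457 (adjusted over 11 genes, p = 0.251) on the difference of means, which does not remove the litter difference. With the litter-adjusted difference as the permuted value, added after seeing the data, the exact permutation p was 0.00571 (adjusted p = 0.0629). The authors' deposited table gave a log2 fold change of 0.55 with an adjusted p of 0.0307.

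The Pigr call turned on the setting. It passed in 7 of 18 alternatives, median-ratio scaling among them (0.71, limma adjusted p = 0.0391), and in 1 of 12 fits that left out a library, that without Erbb3-FF mouse 4 (0.77, adjusted p = 0.0409). Without the 3 libraries rich in B cell genes, which leaves only litter A to compare genotypes, the difference was 0.33 (limma adjusted p = 0.485). With B cell genes as a covariate it was 0.48 (limma adjusted p = 0.229). This covariate, here and below, is the mean log2 level of the 9 B cell follicle genes that reached 1 TPM in 6 libraries. It includes Cd74, which was highest in ERBB3-dIE mouse 1 at 4635 TPM. Ms4a1, Pax5, Cr2 and Fcer2a missed that filter and are not in it. Relative to Epcam, a pan-epithelial adhesion gene, the Pigr ratio was 0.211, 0.286 and 0.377 for Erbb3-FF mice 1, 2 and 3 but 0.478 to 1.26 for the other 9. Within each litter the ratio did not overlap between genotypes. In litter A it was 0.377 to 0.822 in Erbb3-FF and 1.17 to 1.26 in ERBB3-dIE, and in litter B 0.211 to 0.286 and 0.478 to 0.809. Epcam itself was at 2209 to 2280 TPM in those 3 and 1190 to 1868 TPM in the others, and Vil1, a microvillus gene, at 945 to 1098 and 480 to 989 TPM. By litter, Epcam was higher in litter B (0.44, limma adjusted p = 0.0435). Within each litter Epcam also did not overlap between genotypes. In litter A it was at 1373 to 2280 TPM in Erbb3-FF and 1190 to 1349 TPM in ERBB3-dIE, and in litter B at 2209 to 2255 and 1799 to 1868 TPM. The ratio thus carries the lower Epcam of ERBB3-dIE as well as the higher Pigr. The part that B cell content plays in the Pigr difference cannot be told apart from genotype in this design.

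Litter B had less Pigr than litter A (905 ± 388 TPM, n = 5, against 1327 ± 296 TPM, n = 7, limma log2 difference -0.75, SE 0.18, adjusted p = 0.0362). Among 12 fits that each left out a library, 2 kept this call, those without Erbb3-FF mouse 3 and without ERBB3-dIE mouse 3, and the adjusted p ranged from 0.0124 to 0.0898. It was also lost without the 3 libraries rich in B cell genes (-0.48, adjusted p = 0.157), with B cell genes as a covariate (-0.50, adjusted p = 0.252), with no filter on low values (adjusted p = 0.0858) and without the 2 libraries high in ribosomal sequence (-0.69, limma adjusted p = 0.116). The r of Pigr with Igha was 0.561 over 12 mice (adjusted permutation p = 0.0981) with a rho of 0.643 (adjusted permutation p = 0.0471), 0.811 within litter A (adjusted permutation p = 0.0270, n = 7), 0.695 without the 2 mice farthest from the median of Igha (adjusted permutation p = 0.0350) and 0.095 for residuals from litter and genotype. The rho did not pass in litter A (0.571, adjusted permutation p = 0.236) or without the 2 farthest mice (0.624, adjusted permutation p = 0.0809). Without the 3 libraries rich in B cell genes, r was 0.456 and rho 0.367 (adjusted permutation p = 0.218 and 0.336, n = 9), so the relation rests on which libraries enter.

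Because Pigr was the member closest to the threshold in the genotype comparison, the 250 bases before its start are shown (RefSeq, GRCm38.p6, chr1:130826434-130826683, plus strand, 5′ to 3′). Capitals mark the E-box CACGTG, the site type of upstream stimulatory factors, which starts 71 bases before the start. This palindrome occurs in 6.02% of 32851 windows of the same length. The octamer ATGCAAAT and an interferon element, GAAA repeated after a gap of 2 bases, were searched on both strands too. Neither was in this window or in that of Jchain, and they occur in 1.6% and 2.98% of windows. The window of Jchain held no CACGTG. A match is a description of letters and not a site in use. Of the members, 2 had an entry in this promoter table.
Pigr: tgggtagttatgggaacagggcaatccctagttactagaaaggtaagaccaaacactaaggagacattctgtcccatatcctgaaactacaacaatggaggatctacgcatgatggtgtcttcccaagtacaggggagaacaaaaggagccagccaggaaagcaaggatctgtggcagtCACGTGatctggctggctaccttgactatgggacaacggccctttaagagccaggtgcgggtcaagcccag

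**Figure D3:**
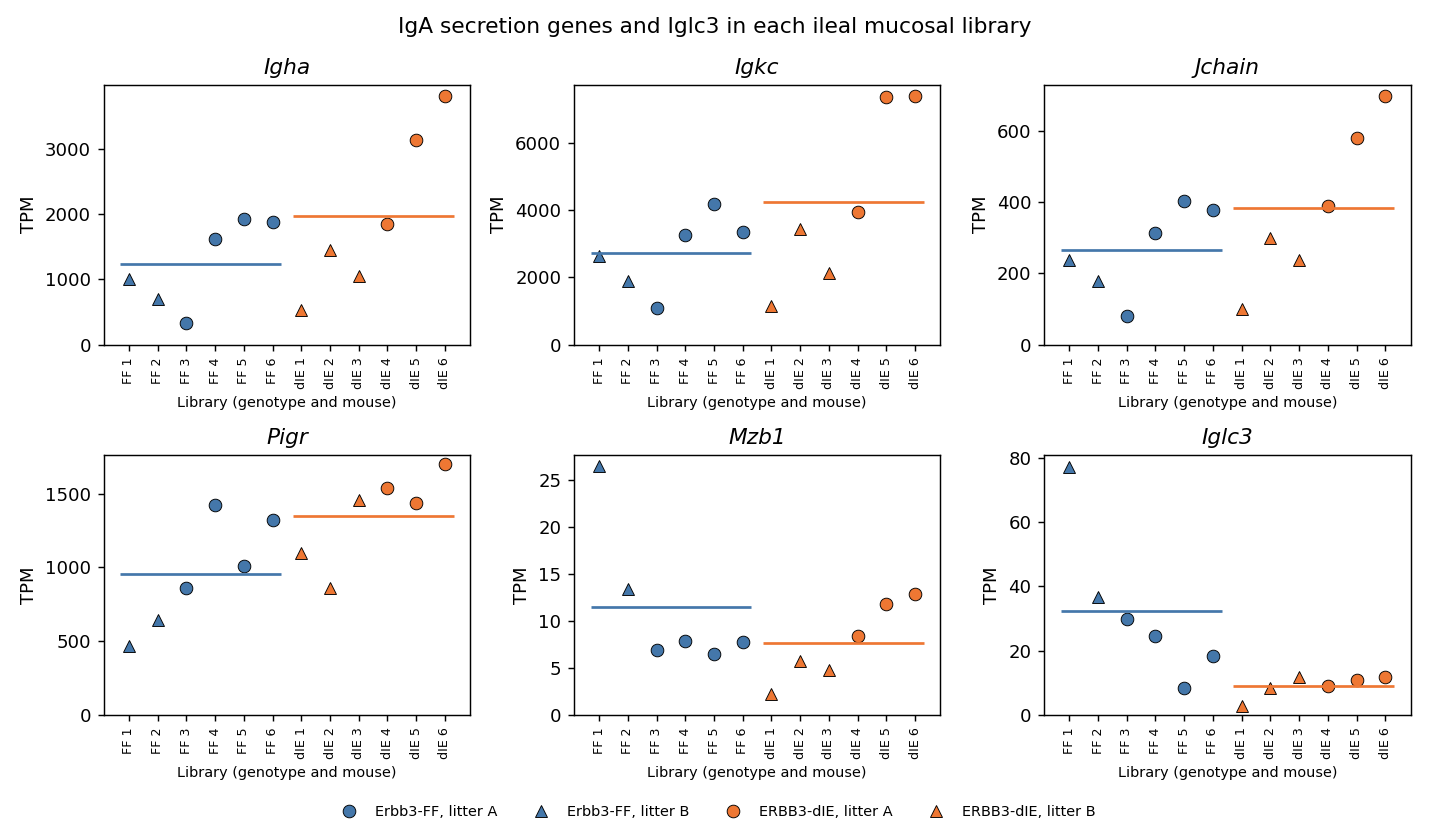
TPM of Igha, Igkc, Jchain, Pigr, Mzb1 and Iglc3 in each library, with colour for genotype, shape for litter and a horizontal line at each genotype's mean. Igha, Igkc and Jchain share 1 profile with the highest points in ERBB3-dIE mice 5 and 6, Pigr lies at 467 to 1424 TPM in Erbb3-FF and 862 to 1701 TPM in ERBB3-dIE, and Iglc3 is highest in Erbb3-FF mouse 1 at 77.3 TPM.

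Summed over the member segments and constant regions, immunoglobulin made up 0.739%, 0.481%, 0.327%, 1.02%, 1.14% and 1.09% of TPM across Erbb3-FF mice 1 to 6. The shares were 0.285%, 0.759%, 0.621%, 1.06%, 1.97% and 2.08% across ERBB3-dIE mice 1 to 6. The mean sum in litter A was 8923 ± 3800 TPM (n = 4) for Erbb3-FF and 17030 ± 5631 TPM (n = 3) for ERBB3-dIE. For litter B the means were 6100 ± 1831 TPM (n = 2) and 5548 ± 2438 TPM (n = 3). The genotypes overlapped in each litter. No test was made on the sum.

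The member variable segments were summed by class, since each plasma cell clone uses its own. Heavy-chain variable TPM ranged from 375 to 4039 and kappa variable TPM from 654 to 5677 over the libraries. In 11 of the 12 libraries the highest heavy-chain segment held 6.14% to 11.1% of its class, and over all 12 libraries 7 different segments held the top place. ERBB3-dIE mouse 2 differed: there 1 heavy-chain segment, Ighv1-80, held 52.4% of the class (534 TPM), against a median of 1.12% and at most 10.8% in the other libraries. In the same mouse 1 kappa segment, Igkv12-44, held 43.3% of its class (607 TPM), against a median of 2.80% elsewhere. These segments are named because their values stood out.

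The effective number of segments, the inverse of the summed squared shares, was 3.45 for heavy and 4.87 for kappa segments in ERBB3-dIE mouse 2. It was 21.8 to 36.8 for heavy and 10.6 to 26.2 for kappa segments in the other 11 libraries. The lowest kappa value among these came from ERBB3-dIE mouse 5, where Igkv6-15 held 25.5% of the class. The Igha level of ERBB3-dIE mouse 2, 1450 TPM, lay within the range of the other mice. In the reference transcripts, 105 of 140 variable segments shared at least 1 window of 75 bases with another gene and 4 shared over 50% of their windows, so single segments are less certain than their sums. Every window of Ighv1-80 was its own, and 12.2% of those of Igkv12-44 were shared.

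**Figure D4:**
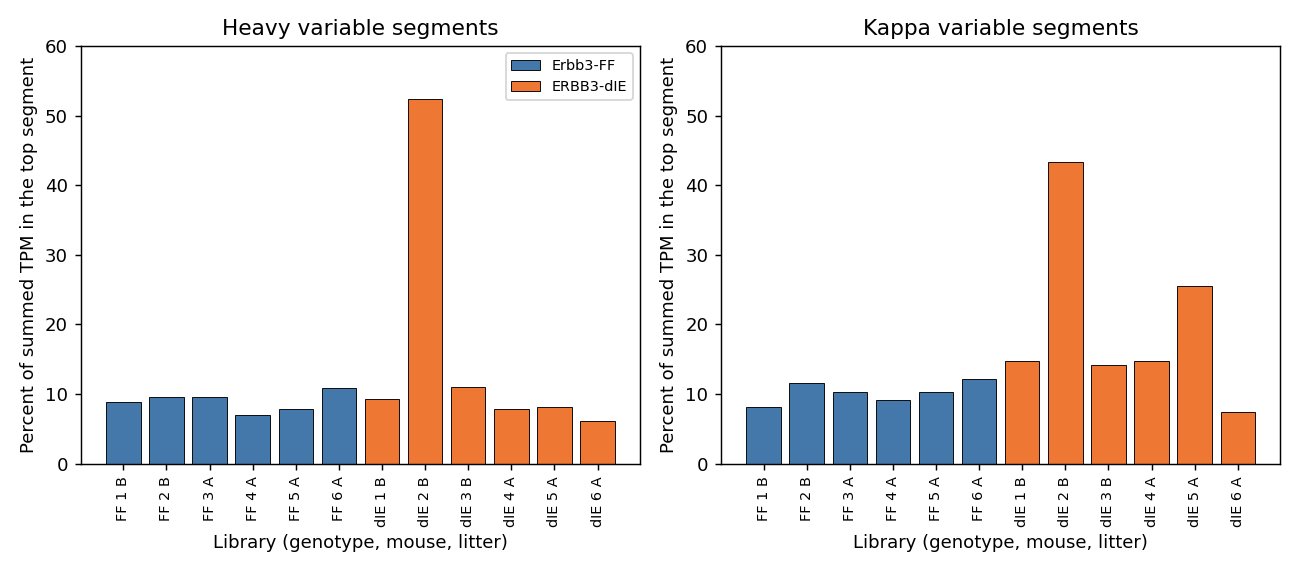
Percent of the summed heavy-chain (left) and kappa (right) variable TPM held by the highest segment of each library, with bar colour for genotype and the litter after each mouse number. ERBB3-dIE mouse 2 reaches 52.4% and 43.3%, ERBB3-dIE mouse 5 reaches 25.5% for kappa, and the others lie at 6.14% to 14.8%.

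Across all members, limma called 0 of the 146 tested as higher and 0 as lower in ERBB3-dIE, where 1.66% of all 12605 tested genes were called higher and 3.7% lower. Calls over all genes fell from 209 higher and 467 lower to 14 and 21 without the 3 B cell-rich libraries. With B cell genes as a covariate limma called 41 and 62, and 0 members passed in either fit. Leaving out only Erbb3-FF mouse 1, 2 or 3 gave 107 and 212, 104 and 217, and 203 and 411. Leaving out only ERBB3-dIE mouse 4, which is not rich in B cell genes, gave 95 and 247. The loss of mice was not told apart from B cell content. The other 5 members, Ighd among them, missed the filter on low values. At an unadjusted p under 0.05 there were 7 members (4.79%), 5 higher and 2 lower, against 21.8% of all genes. Of the 146, 12 reached a mean of 5 TPM in ERBB3-dIE alone and 5 in Erbb3-FF alone, so the counts and the median are a description. The median log2 difference of the tested members was 0.001 and that of all genes was -0.001. In the authors' deposited table, 6 members were higher (Pigr and 5 variable segments) and 3 were lower (Iglc3 and 2 variable segments) of 138 with an adjusted p, where 5.07% of all genes were higher and 7.51% lower.

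By litter the picture differed. In litter A alone the members had a median genotype difference of 0.91 (all genes 0.08) and in litter B alone of -1.05 (all genes -0.10). Of the 12605 genes tested, none passed the test of this interaction in limma: 0% of all genes were higher and 0% lower. At an unadjusted p under 0.05 stood 36 of 146 members (24.7%), 35 of them lower, against 9.31% of all genes. The rule bears on these counts: 40 of the 146 reached a mean of 5 TPM in litter A and not in litter B. Members such as Igha, Igkc and Jchain also varied together over mice. The counts and medians are thus a description. For Mzb1 the interaction was -2.68 (SE 0.47, adjusted p = 0.128), for Iglc2 -2.58 (SE 0.51, adjusted p = 0.171) and for Igha -1.09 (SE 0.93, adjusted p = 0.755). The 2 Erbb3-FF mice of litter B are both rich in B cell genes. With B cell genes as a covariate, the median interaction of the members was -1.89, as it was without it, and 0 members passed (limma, 2 of all genes higher and 2 lower).

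Litter B was lower than litter A in 15 of the 146 tested members and higher in 0, where 7.16% of all genes were called higher and 1.4% lower. The 15 were 11 heavy-chain and 3 kappa variable segments and Pigr. At an unadjusted p under 0.05 there were 46 members (31.5%), all of them lower, against 9.64% of all genes lower and 19.8% higher, and the median member differed by -1.12 (all genes 0.05). These counts are not independent of the rule: 40 of the 146 reached a mean of 5 TPM in litter A and not in litter B, and 8 of the 15 are among them, so the counts and the median are a description. The constant regions did not pass: Igkc differed by -0.94 (SE 0.42, adjusted p = 0.158) and Jchain by -0.92 (SE 0.45, adjusted p = 0.197). Igha, Igkc and Jchain each passed in 2 of 13 alternatives. One was library weights (limma adjusted p = 0.0203, 0.0365 and 0.0348). The other was the set without the 3 B cell-rich libraries, which compares litters within ERBB3-dIE only. Each of the 3 genes also passed without Erbb3-FF mouse 3 (limma adjusted p = 0.00619, 0.0202 and 0.0138). The authors' table holds no litter comparison.

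The count of 15 depended on single libraries. It became 38 without Erbb3-FF mouse 3, 11 without its mouse 1, 8 without its mouse 2 or mouse 4 and 7 without its mouse 5 or mouse 6. Among ERBB3-dIE mice, leaving out mouse 1 gave 0, mouse 4 gave 2 and mouse 5 gave 4. Leaving out mouse 2 or mouse 6 of that genotype gave 7, and mouse 3 gave 11. Calls over all genes moved as well: 1.4% of all genes were lower with every library, 8.54% without Erbb3-FF mouse 3 and 1.55% without ERBB3-dIE mouse 3. The share was 0.0317% without ERBB3-dIE mouse 1, 0.0714% without ERBB3-dIE mouse 4, and 0.222% to 0.547% without each of the other mice just named. Without all 3 libraries rich in B cell genes the count was 36 (4.77% of all genes lower). Igha was then at -1.59 (limma adjusted p = 0.0309), Igkc at -1.56 (adjusted p = 0.0387) and Jchain at -1.49 (adjusted p = 0.0412). Iglc2 was at -1.52 (limma adjusted p = 0.00809) and Mzb1 at -1.35 (limma adjusted p = 0.0245). No Erbb3-FF mouse of litter B is left in that fit, so its litter difference compares ERBB3-dIE mice only. Without Erbb3-FF mice 5 and 6, the libraries high in ribosomal sequence and both of litter A, the count was 0. Over all genes limma then called 4 higher and 3 lower.

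**Figure D5:**
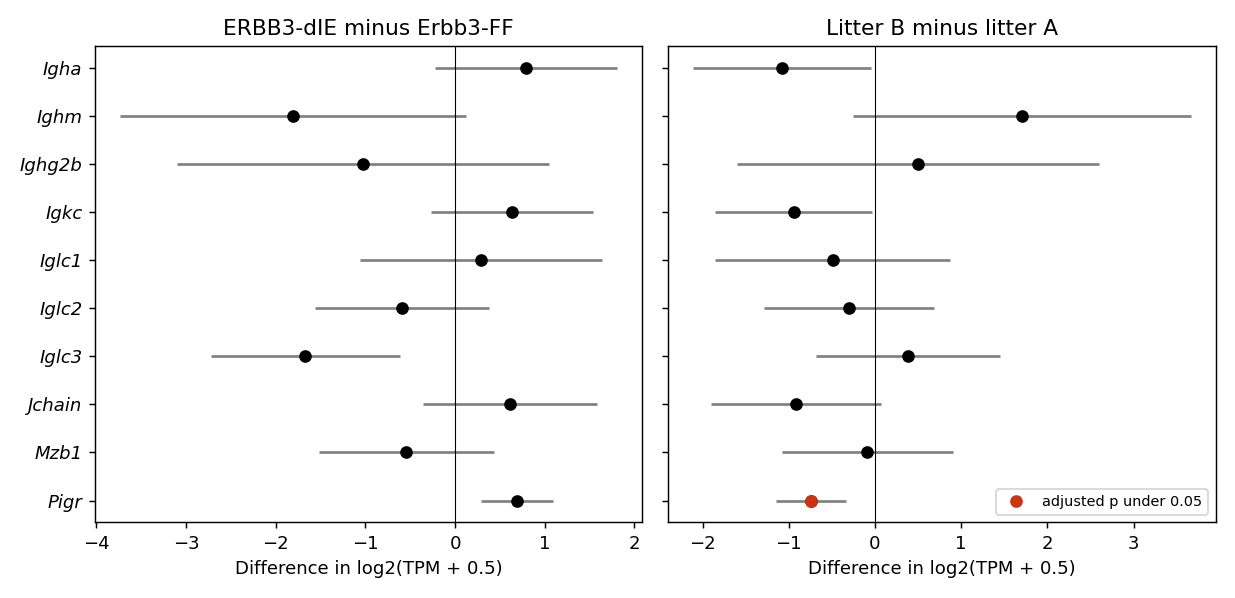
Limma differences in log2(TPM + 0.5) with 95% intervals for the constant regions without Ighd, Jchain, Mzb1 and Pigr, by genotype (left) and litter (right). The genotype interval of Ighm is a description. Pigr is the only gene shown whose interval lies above 0 by genotype (0.29 to 1.09), Iglc3 lies below 0, and by litter Pigr passes the adjusted threshold at -0.75.

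Genes of antibody secretion outside the members were read from gene lists. Of the list genes named below, 17 passed by genotype. Without the 3 B cell-rich libraries 0 of these 17 passed in limma and all 17 kept their sign, and with B cell genes as a covariate 1 passed, Txndc5 (0.50, adjusted p = 0.0415). Of 12 that passed by litter, 9 passed without those 3 libraries, 0 without the 2 libraries high in ribosomal sequence and 0 with the B cell covariate. The fit without those 3 libraries compares genotypes within litter A only and litters within ERBB3-dIE only. At an unadjusted p under 0.05 by genotype stood 21.8% of all genes, the share against which such counts are to be read. Of 25 genes of plasma cell identity and secretion, 23 were tested, 3 were higher and 1 was lower in ERBB3-dIE (median 0.21, with 15 at an unadjusted p under 0.05). Fkbp11, which encodes a prolyl isomerase of the secretory pathway, was at 4.19 to 11.5 TPM in Erbb3-FF and 8.05 to 20.8 TPM in ERBB3-dIE (limma log2 difference 0.98, SE 0.18, adjusted p = 0.0127). Txndc5, a disulfide isomerase, lay at 99.5 to 138 TPM in Erbb3-FF and at 165 to 191 TPM in ERBB3-dIE with no overlap (0.58, limma adjusted p = 0.00618). Sec11c, a signal peptidase subunit, was also higher (0.48, limma adjusted p = 0.0233). Ell2, an elongation factor that favours the secreted form of heavy-chain transcripts, was lower (-0.51, limma adjusted p = 0.0146), with 18.2 to 25.5 TPM in Erbb3-FF and 14.95 to 17.6 TPM in ERBB3-dIE. Epithelial cells also express these genes, and the plasma cell receptor Tnfrsf17 was at 0.143 to 1.02 TPM in Erbb3-FF and 0.144 to 2.21 TPM in ERBB3-dIE. Sdc1, the plasma cell and epithelial syndecan, was at 74.7 to 109 and 56.6 to 87.3 TPM. By litter, Fkbp11 (-0.94, limma adjusted p = 0.0207) and Cd38 (-0.68, adjusted p = 0.0293) were lower in litter B.

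Of 21 endoplasmic reticulum chaperone and stress rows, 8 had an unadjusted p under 0.05. Creld2 was higher (0.59, limma adjusted p = 0.0404) and Ddit3, a stress-induced transcription factor, was lower (-0.68, adjusted p = 0.0292). Ddit3, Ero1b and Atf4 were higher in litter B (0.88, 0.70 and 0.29, limma adjusted p = 0.0172, 0.0306 and 0.0411). Of 18 tested genes known to act on Pigr, 7 had an unadjusted p under 0.05, 0 were higher and 2 were lower: Relb, an NF-kappaB subunit, at -0.56 (limma adjusted p = 0.0476) and Ifngr1, an interferon gamma receptor chain, at -0.40 (adjusted p = 0.0296). Both were higher in litter B (1.02 and 0.46, limma adjusted p = 0.0111 and 0.0222). Of 16 genes of receptor transport, 7 had an unadjusted p under 0.05 and 1 was higher: Rab3d, a small GTPase of secretory granules and transcytosis, was at 10.7 to 17.5 TPM in Erbb3-FF and 15.3 to 27.8 TPM in ERBB3-dIE (0.74, SE 0.14, limma adjusted p = 0.0129). Retreg1 and Rab17 were higher in litter B (1.16 and 0.82, adjusted p = 0.0153 and 0.0280). Of 6 tested immunoglobulin receptors, 4 had an unadjusted p under 0.05, and Trim21, the cytosolic antibody receptor, was higher (0.39, adjusted p = 0.0432).

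Of 15 tested genes for IgA class switch and homing, 0 passed by genotype in limma, with 5 at an unadjusted p under 0.05, and Smad3 had the smallest p (-0.40, adjusted p = 0.0909). By litter, Ccl28, the epithelial chemokine that draws IgA plasma cells to mucosae, was lower in litter B (17.0 ± 9.17 TPM, n = 5) than in litter A (33.0 ± 8.45 TPM, n = 7, limma log2 difference -1.10, SE 0.24, adjusted p = 0.0265). Of 9 tested B cell follicle genes, 0 passed by genotype (2 at an unadjusted p under 0.05, median -1.11), and H2-Ob was the nearest at -2.44 (limma adjusted p = 0.0775). Of 5 tested germinal centre genes, 0 passed, with 1 at an unadjusted p under 0.05, Bcl6 (-0.44, limma adjusted p = 0.219). Vpreb3, the only tested gene of the surrogate light chain list, was at -0.88 (adjusted p = 0.499).

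Markers of other cells were read beside these results. Of 15 tested genes of T cells and intraepithelial lymphocytes, 4 were higher in ERBB3-dIE (Gzma, Ccl5, Cd7 and Cd8a), and the summed list lay at 137 to 251 TPM in Erbb3-FF and 216 to 758 TPM in ERBB3-dIE. Of 12 epithelial genes, Krt18 was higher and Krt20 lower, and the list summed to 13330 to 17260 and 12180 to 16230 TPM. Of 10 macrophage and dendritic cell genes, 8 fibroblast and 4 endothelial genes tested, 0 passed in limma, with 0, 1 and 0 at an unadjusted p under 0.05. Their smallest p-values were those of Itgax (-0.49, limma adjusted p = 0.261), Pdgfrb (-0.67, adjusted p = 0.0534) and Emcn (0.69, adjusted p = 0.309). Of 7 smooth muscle genes 1 was lower, Mylk (-0.56, limma adjusted p = 0.0398), and the defining markers Acta2, Myh11 and Des summed to 49.8 and 48.2 TPM in ERBB3-dIE mice 4 and 5 and at most 14.2 TPM elsewhere. By litter, the smooth muscle gene Smtn was lower in litter B (-0.87, limma adjusted p = 0.0254). The lists with no litter call had their smallest p for Cd74 among B cell follicle genes (1.23, limma adjusted p = 0.0712), Mki67 among germinal centre genes (-0.98, adjusted p = 0.0694) and Cd4 among T cell genes (1.101, adjusted p = 0.0831). For myeloid, fibroblast and endothelial genes these were Itgam (-0.70, limma adjusted p = 0.0799), Col1a1 (-0.81, adjusted p = 0.231) and Emcn (-0.37, adjusted p = 0.529). Vpreb3 was at 1.14 (limma adjusted p = 0.298), and Trim21, among immunoglobulin receptors, at 0.14 (adjusted p = 0.378). With the epithelial genes as a covariate, 1 member was higher by genotype and 2 were lower by litter. The part of the other cells in the antibody gene values was not tested.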

How the data were processed

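Per the labels' protocols, mucosa was scraped from ileum, RNA was prepared with a commercial kit, and stranded mRNA libraries were read as single 75-base reads. The tools named are Salmon 1.10.0, DESeq2 and CASAVA, with the build GRCm39, per the submitters' processing notes. The annotation release is not given in the sources used here. The authors deposited 1 table with TPM per library, normalized for gene length and library total, and, per the file headers, their own test: a mean normalized signal, a log2 fold change with its error, a test score, a p-value and an adjusted p-value. TPM keep no depth, so count models were not used.

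The 12605 genes that reached 1 TPM in 6 or more of the 12 libraries were tested on log2(TPM + 0.5) with limma 3.58.1 in R 4.3.3 (litter and genotype as terms, variance trend), with Benjamini-Hochberg adjustment over all tested genes and a threshold of 0.05. This scale understates the change of low genes. The interaction was tested in a second model. The script was tested on simulated data. Single members were also compared by an exact permutation test within litters, and relations over mice by permutation (100000 resamples). Samples were grouped by the genotype, litter and mouse number in the labels, which name separate mice. No column of the table belongs to a sample outside the labels. Values after ± are SD.

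The members and lists were chosen with earlier results of these data known. The text names all constant-region members, Jchain, Pigr and Mzb1, variable segments by class, and per list up to 6 genes past the threshold by genotype and up to 3 by litter, or else the smallest p. Alternatives covered pseudocounts, filters, scalings, litter and covariate terms, weights and left-out libraries. All 151 members matched GENCODE mouse transcripts on GRCm38 by identifier, and these served for sequences and shared windows only, as a GRCm39 genome was not used here. Results for 1 gene are not reported here.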

Additional observations from a re-analysis of the deposited data

Results flagged for a closer look

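In 80 groups of 6 libraries (40 values in each genotype), 7 had a highest or lowest library farther from its neighbour than Dixon's 95% limit of 0.625 of the range, where chance flags about 1 group in 20. In Erbb3-FF, mouse 1 was the highest for Mzb1 (26.5 TPM, next 13.4 TPM), Ighd (65.7 TPM, next 21.1 TPM) and Iglc2 (50.6 TPM, next 20.4 TPM), and it is also the library with the most Ms4a1 (22.3 TPM). The ratio of Ighm to Ighd was highest in Erbb3-FF mouse 4 at 11.01 (next 4.32), where Ighd was at 0.264 TPM. In ERBB3-dIE, mouse 3 had the highest Ighd (3.61 TPM, next 1.12 TPM) and the lowest Igha share of heavy-chain constant TPM (97.4%, next 98.8%). In ERBB3-dIE mouse 2, 1 heavy-chain variable segment held 52.4% of its class (next 11.1%).

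Mzb1 was higher in ERBB3-dIE than in every Erbb3-FF mouse of litter A (11.1 ± 2.32 TPM, n = 3, against 7.25 ± 0.658 TPM, n = 4) and lower than in every Erbb3-FF mouse of litter B (4.23 ± 1.78 TPM, n = 3, against 19.97 ± 9.23 TPM, n = 2). The limma interaction of -2.68 had an adjusted p of 0.128 and did not pass. Both Erbb3-FF mice of litter B are rich in B cell genes.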

How the results depend on the processing

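The genotype count of 0 members higher became 1 under a mean filter of 5 TPM, median-ratio scaling, robust variance, an epithelial covariate, totals without immunoglobulin rows and totals without mitochondrial and ribosomal rows, and 6 in the authors' deposited test. The count of 0 lower became 2 with library weights, 1 in litter B alone or without the 2 libraries high in ribosomal sequence, and 3 in the authors' test. Leaving out single libraries gave 0 to 1 higher and 0 to 1 lower. With mouse number as a replicate block in place of litter, 1 was higher and 1 lower, and Pigr was at 0.57 (limma adjusted p = 0.0679). The numbers did not pair the mice by litter, since Erbb3-FF mouse 3 was from litter A and ERBB3-dIE mouse 3 from litter B. Deviations of same-numbered mice correlated at 0.074 to 0.357, and mouse 2 fell under 0.1. Mice 4 and 5 each had the same number of the other genotype as best match, and no other number did. These correlations do not decide on pairing. The 15 members lower in litter B (all genes 902 higher, 176 lower) became 0 with a B cell covariate (all genes 0 and 0) or without the 2 ribosomal libraries (4 and 3), 2 with an epithelial covariate (126 and 36), 5 with no filter (219 and 26), 34 with library weights (1847 and 903), 36 without the 3 B cell-rich libraries (920 and 601), and 0 to 38 with single libraries left out. The interaction count of 0 lower ranged from 0 to 3 with single libraries left out (2 without Erbb3-FF mouse 2, 3 without Erbb3-FF mouse 3). The cause was not tested.

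Signs of differences that passed no test reversed as follows. By genotype without the 3 B cell-rich libraries, Ighm was at 0.83, Ighg2b 1.39, Iglc1 -0.58, Iglc2 0.62 and Mzb1 0.54. With the B cell covariate, Ighg2b was at 0.66, Iglc1 -0.18, Iglc2 0.10 and Mzb1 0.0060. In litter A alone, Ighg2b was at 0.18, Iglc2 0.47 and Mzb1 0.56, and in litter B alone Igkc was at -0.14 and Jchain -0.093. With library weights Iglc1 was at -0.095. Left-out libraries took Iglc1 from -0.032 to 0.57. By litter, the B cell covariate put Ighm at -0.33, Ighg2b -1.52, Iglc1 0.072 and Iglc3 -0.44, and leaving out the 3 libraries put Ighm at -0.12, Ighg2b -0.88 and Iglc3 -0.63. Ighg2b was at -0.17 without the 2 ribosomal libraries, and Mzb1 at 0.15 with the epithelial covariate. Left-out libraries took Iglc3 from -0.069 to 0.76 and Mzb1 from -0.58 to 0.23. The r of Igha with Mzb1 was -0.062 without the 2 farthest mice and 0.979 without the 3 libraries, and that of Igha with Pigr passed in litter A (0.811) and without the 2 farthest mice (0.695) but not without the 3 libraries (0.456). Class sums and shares moved by less than 1 SD under rules of 1 and 20 TPM, totals without mitochondrial and ribosomal rows, and single left-out libraries. The set without the 3 B cell-rich libraries was not run for them. For the Igha share that SD, 9.67, takes in the spread that those 3 libraries make. Erbb3-FF mice 4 to 6 were at 99.64%, 99.66% and 99.69%, against an ERBB3-dIE mean of 99.02%. Fits on 1 litter and 2 mice of a genotype are thin, and depth is unknown. The fit without the 3 B cell-rich libraries holds no Erbb3-FF mouse of litter B.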
